A study of Homo sapiens with 80 samples.

Results

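The effect of 7 min at 9 g (hypg7) was examined against 1 g (Ctrl) in Jurkat T cells, an immortalized human T lymphocyte line derived from acute leukemia. The libraries were chosen by their treatment label, 6 of hypg7 (libraries 31 to 36) and 6 of Ctrl (libraries 1 to 6), which made 12 of the 80 libraries of the series. The study followed gene expression in these cells at several durations of hypergravity. Its libraries were made from total RNA depleted of ribosomal RNA, not from polyadenylated RNA alone. Cells in suspension were held in a serological pipette and were released straight into lysis buffer. Ctrl cells spent 15 min in the pipette at 1 g. Cells of hypg7 spent 8 min at 1 g and then 7 min at 9 g, so that the time in the pipette was 15 min as well. For hypg5, hypg9 and hypg3, used here for direct comparisons (6 libraries each), 10, 6 and 12 min at 1 g preceded 5, 9 and 3 min at 9 g. The comparison with GC content also used hypg20s and hypg75s (20 and 75 s at 9 g within 15 min in the pipette), hypg15 (15 min at 9 g) and hypg60 (60 min at 9 g), of 6 libraries each. Ctrl60, an alternative control of 6 libraries, was held for 60 min at 1 g. The labels pair Ctrl60 with columns of the count table whose names mention HEPES, a buffer, and whether its medium differed from that of Ctrl is not stated. Total counts ran from 27314458 to 36083081 per library in Ctrl and from 28642500 to 41893490 at hypg7. The labels do not say whether libraries of a group came from separate cultures, and p-values therefore measure only the spread between these samples, which may be technical. Each group also has its own block of library numbers (1 to 6 for Ctrl, 31 to 36 for hypg7), so that library number range and treatment cannot be told apart in any comparison.

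As background, T lymphocytes sense mechanical load through the cell membrane, ion channels and the actin cytoskeleton, which is tied to the nuclear envelope and chromatin. Mitochondria carry a small genome of their own that codes for core subunits of the respiratory chain, whereas the remaining subunits, the ribosomal proteins of mitochondria and nearly every other protein are encoded in the nucleus. Small nuclear RNAs are the RNA components of the spliceosome, and messenger RNAs of ribosomal proteins belong to the most abundant messages of dividing cells.

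After 7 min at 9 g, most protein-coding genes of the mitochondrial genome and 3 NOTCH receptors were upregulated, as were some of the chromatin regulators (16 of 72) and host transcripts of microRNAs (5 of 13). Among downregulated genes were 42 of 79 cytosolic ribosomal proteins, 31 of 74 nuclear-encoded respiratory chain subunits, 12 of 32 proteasome subunits and 7 of 14 spliceosomal small nuclear RNAs. Of 16438 genes tested with edgeR, 2108 (12.8%) were regulated at an adjusted p under 0.05, 1091 upward (6.64%) and 1017 downward (6.19%). The changes were small: only 74 regulated genes (0.45%) changed by more than 1 log2 unit, 20 upward and 54 downward, and their median mean expression was 0.505 CPM (scaled by TMM). For 913 regulated genes (5.55%) the values of the 6 hypg7 libraries did not overlap those of the 6 Ctrl libraries, 493 above and 420 below. The median log2 fold change (hypg7 minus Ctrl) was 0.32 among upregulated and −0.23 among downregulated genes. Upregulated genes were expressed at a median of 10.6 CPM and had a median GC content of 54.6%, downregulated genes at 53.2 CPM and 47.8%, and all genes tested at 11.7 CPM and 49.8%. In bulk RNA, fewer cells of a type and less RNA per cell cannot be told apart.

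The balance of directions depended on scaling: 51.8% of regulated genes were upregulated with TMM, 67.3% with total counts and 37.9% with a GC-dependent offset (GC offset). The counts also changed when a single library was left out. Such fits hold fewer libraries as well, and the effect of that on the counts was not tested. Without library 35 of hypg7, 633 genes were up and 586 down, without Ctrl library 6, 702 and 648, without library 36 of hypg7, 641 down, and without library 32 of hypg7 the genes past 1 log2 unit numbered 117 (48 without library 35). Within hypg7, libraries 31 and 32 both lay above libraries 33 to 36 for 475 of the 1017 downregulated genes (below for 38), and both below them for 196 of the 1091 upregulated genes (above for 54). Besides the 12 libraries, a single model of all 60 libraries at 9 g and their controls was fitted (the model of 60 libraries), also without library 75 of hypg15. With 3 surrogate variables estimated over all 60 libraries at 9 g and their controls as covariates, edgeR called 0 genes at an adjusted p under 0.05 (601 at an unadjusted p under 0.05; DESeq2 without covariates called 2429). Those covariates carried most of the group difference (R2 of group over the 12 libraries 0.931), and the part of each in the change cannot be told apart.

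**Figure D1:**
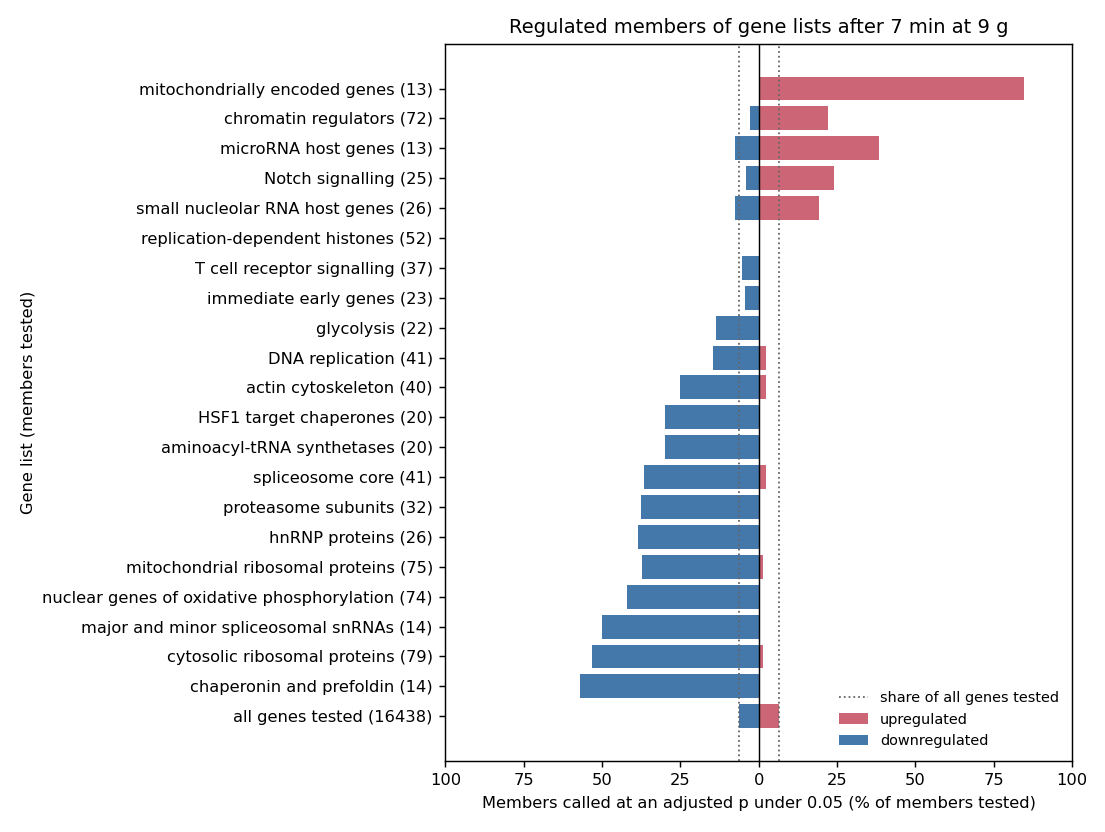
Share of members of 21 gene lists called upregulated (right) or downregulated (left) at hypg7, in percent of the members tested, whose number stands in parentheses. Dotted lines mark the shares over all 16438 genes tested, 6.64% and 6.19%; the mitochondrially encoded genes stand far to the right and the chaperonins, ribosomal proteins and spliceosomal RNAs far to the left.

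The mitochondrial genome codes for 13 proteins, all of them subunits of the respiratory chain or of ATP synthase, and 11 of the 13 were upregulated while none was downregulated, against 6.64% of all genes tested. Their median log2 fold change was 0.40 (0.0048 over all genes tested) and those called ranged from 0.21 to 0.76. MT-ND6, the complex I subunit read from the light strand, ran from 57.4 to 96 CPM in Ctrl (median 88) and from 111 to 177 CPM at hypg7 (median 138). Every hypg7 library was above every Ctrl library, and the log2 fold change was 0.76 ± 0.12 (SE, n = 6 and 6, edgeR adjusted p = 0.00162). MT-ND2, a further complex I subunit, ran from 1068 to 1227 CPM in Ctrl (median 1189) and from 1443 to 1734 CPM at hypg7 (median 1613), a change of 0.46 ± 0.058 (SE, n = 6 and 6, edgeR adjusted p = 0.000423). MT-ND4L, also of complex I, ran from 174 to 213 CPM in Ctrl (median 192) and from 246 to 292 CPM at hypg7 (median 257), with no overlap and a log2 fold change of 0.46 (adjusted p = 0.000295). For MT-CO1, the catalytic subunit of cytochrome c oxidase, the range was 2602 to 3174 CPM in Ctrl (median 3042) and from 3502 to 4432 CPM at hypg7 (median 3939), again without overlap, and the change was 0.44 (adjusted p = 0.00221). MT-CO2 and MT-ND3, chosen after their values were seen, did not pass the test, with log2 fold changes of 0.084 (adjusted p = 0.482) and −0.028 (adjusted p = 0.871). That of MT-ND3 was 0.013 with total counts. In a single model over all 60 libraries edgeR called 0 of the 13 (0 at an unadjusted p under 0.05, lowest adjusted p = 0.327), with a median again of 0.40. The same model without library 75 of hypg15 called 10, and DESeq2 on the 12 libraries called 11. Against Ctrl60 the median was 0.62, with 11 called.

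The share of counts on the mitochondrial genome was higher in each hypg7 library. It ran from 1.33 to 1.6% in Ctrl (median 1.5%) and from 1.80 to 2.10% at hypg7 (median 1.95%), so that all 6 hypg7 libraries lay above all Ctrl libraries. The difference of 0.468 percentage points had an exact permutation p of 0.00216 (both directions, over all splits, the smallest possible; 0.00541 adjusted over 5 library measures). Shares add up to about 100%, so that the difference on autosomes (−0.428 percentage points) largely mirrored this one. The share on the X chromosome differed by −0.0413 points with 5 of 6 hypg7 libraries below all Ctrl libraries (exact permutation p = 0.0238, adjusted 0.0397). This last call was lost against Ctrl60 (adjusted permutation p = 0.119). It was also lost when any of 8 libraries was left out, namely Ctrl 1, 4, 5 and 6 and hypg7 31, 33, 34 and 36. Leaving these out gave an adjusted permutation p up to 0.0902 (without hypg7 library 31 or 36). The RNA of the signal recognition particle and 7SK took 5.36% of counts in Ctrl and 5.41% at hypg7 by the medians (exact permutation p = 0.364, adjusted 0.455).

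**Figure D2:**
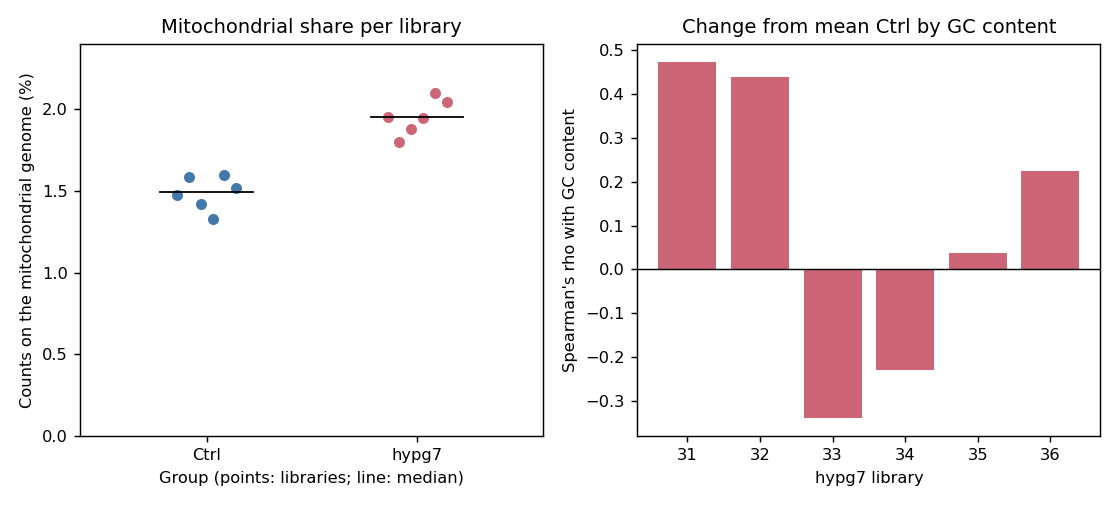
Left, percent of counts on the mitochondrial genome in each of the 6 Ctrl and 6 hypg7 libraries, with the median as a line; the hypg7 libraries sit between 1.80 and 2.10%, above all Ctrl libraries. Right, Spearman's rho across genes between the GC content of a gene and the difference of each hypg7 library from the mean of Ctrl; the bars run from −0.34 to 0.474.

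Ribosomal proteins of the cytosol are the structural proteins of the translating ribosome. Of 79 members tested, 42 were downregulated, 1 was upregulated and 36 were not called, against 6.19% and 6.64% of all genes. The median log2 fold change was −0.20 (with total counts −0.15), and 74 of 79 estimates were below 0. The 4 members with the largest change were RPL11, RPL34, RPS21 and RPL35A. Their sequences around the transcription start are shown since such genes share a start in a run of pyrimidines, the feature known as the terminal oligopyrimidine motif. Each run of 40 bases (RefSeq, GRCh38.p14, 5′ to 3′) holds 20 bases before and 20 from an annotated start. Where a gene had several starts, a start with CTTT was preferred, as for RPL11 and RPL34 (2 listed starts each). Capitals mark the letters CTTT where they lie within 10 bases of the start shown:
RPL11 (chr1:23691786-23691825, plus strand): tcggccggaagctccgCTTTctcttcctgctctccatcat
RPL34 (chr4:108620556-108620595, plus strand): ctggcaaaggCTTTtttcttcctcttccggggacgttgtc
RPS21 (chr20:62387083-62387122, plus strand): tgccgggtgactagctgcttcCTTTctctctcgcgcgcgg
RPL35A (chr3:197950170-197950209, plus strand): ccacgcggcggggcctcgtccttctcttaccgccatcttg

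The letters CTTT were present on the sense strand within 10 bases of a start in 43 of 63 ribosomal protein genes with an entry in the RefSeq table (68.3%), and in 11.7% of 27305 genes with an entry. A gene with several listed starts counted if any of them held CTTT. On the opposite strand (AAAG) the shares were 4.76% and 8.53%. Among the matched genes, 23 of 35 downregulated and 20 of 28 others held CTTT. A search for these letters does not measure the pyrimidine motif itself. In RPL11 and RPL34 the marked letters lie before the start, and RPL35A reads cttctctt from its start without CTTT. RPL11, a large subunit protein that also binds MDM2, ran from 312 to 385 CPM in Ctrl (median 331) and from 236 to 302 CPM at hypg7 (median 249). The groups did not overlap, and RPL11 fell by 0.38 ± 0.063 log2 units (SE, n = 6 and 6, edgeR adjusted p = 0.00222). RPL34, of the large subunit, ran from 306 to 347 CPM in Ctrl (median 335) and from 234 to 291 CPM at hypg7 (median 253), a change of −0.36 (adjusted p = 0.00159). RPS21, of the small subunit, ran from 446 to 546 CPM in Ctrl (median 479) and from 320.1 to 442 CPM at hypg7 (median 372), with a change of −0.35 (adjusted p = 0.00708). For both, all hypg7 libraries were below all Ctrl libraries, whereas RPL35A (−0.34, adjusted p = 0.011) overlapped between groups. RPL36AL, a paralog of RPL36A outside the list, ran from 58.8 to 72.5 CPM in Ctrl (median 61.8) and from 37.2 to 47.7 CPM at hypg7 (median 43.4) and changed by −0.57 (adjusted p = 0.000295), without overlap. Libraries 31 and 32 of hypg7 both lay above libraries 33 to 36 for 35 of the 42 downregulated members (475 of all 1017 downregulated genes). RPS21 was at 427 and 442 CPM in them against 320.1 to 374, RPL35A at 395 and 396 against 283 to 339, and RPL11 at 269 and 302 against 236 to 253. Without library 35 of hypg7, 21 members were called down, without Ctrl library 6, 24, without library 33 of hypg7, 26, and without Ctrl library 1 or library 34 of hypg7, 27. Members down numbered 66 with the GC offset and 23 in the model of 60 libraries (45 without library 75). Ribosomal protein genes have many processed copies in the genome, so that their reads may be split and their values are uncertain to that degree.

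Nuclear genes also code for parts of the respiratory chain and for the ribosomes of mitochondria. Of 74 nuclear genes for respiratory chain and ATP synthase subunits, 31 were downregulated, none was upregulated and 43 were not called (background 6.19% down), with a median log2 fold change of −0.16 (total counts −0.11). Of 75 mitochondrial ribosomal proteins, which translate the mitochondrial messages, 28 were down, 1 was up and 46 were not called, with a median of −0.15 (total counts −0.11). ATP5ME, a subunit of the membrane part of ATP synthase, had the largest decrease among protein-coding genes named. It ran from 46.1 to 51.8 CPM in Ctrl (median 48.8) and from 27.6 to 42 CPM at hypg7 (median 29.8), without overlap, and the change was −0.58 ± 0.089 (SE, n = 6 and 6, edgeR adjusted p = 0.0015). NDUFAF2, an assembly factor of complex I, ran from 18.3 to 19.9 CPM in Ctrl (median 19) and from 10.9 to 14.7 CPM at hypg7 (median 13.5) and changed by −0.55 (adjusted p = 0.000446), also without overlap. The complex I subunits NDUFS5 and NDUFA1 changed by −0.37 (adjusted p = 0.00134) and −0.34 (adjusted p = 0.0105) without overlap, and NDUFS6 by −0.40 (adjusted p = 0.013) with overlapping ranges. Among mitochondrial ribosomal proteins, MRPS31 changed by −0.39 (adjusted p = 0.00104) and MRPS9 by −0.34 (adjusted p = 0.00387), each without overlap. MRPL46, chosen after its values were seen, was the member that rose (0.25, adjusted p = 0.0172).

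The decreases were not uniform over the hypg7 libraries. Libraries 31 and 32 both lay above libraries 33 to 36 for 22 of the 31 downregulated respiratory chain genes and for 15 of the 28 downregulated mitochondrial ribosomal proteins (475 of all 1017 downregulated genes). ATP5ME was at 38 and 42 CPM in them against 27.6 to 30.0, NDUFS6 at 67.9 and 72.1 against 43.8 to 54.7, and NDUFA1 at 34.7 and 36.3 against 25.7 to 30.1. Both counts also moved when a single library was left out, in fits with fewer libraries. The median log2 fold change stayed within −0.187 to −0.134 for the respiratory chain genes in these fits. For the mitochondrial ribosomal proteins it stayed within −0.173 to −0.129. Of the respiratory chain genes 13 were called without library 35 of hypg7, 15 without library 36 of hypg7 or Ctrl library 4, 16 without library 33 of hypg7 or Ctrl library 6, and 19 without Ctrl library 1. Of the mitochondrial ribosomal proteins 18 were called without library 35 of hypg7 or without Ctrl library 6. Respiratory chain genes down numbered 11 in the model of 60 libraries (27 without library 75). Mitochondrial ribosomal proteins down numbered 47 with the GC offset and 18 in the model of 60 libraries (25 without library 75).

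**Figure D3:**
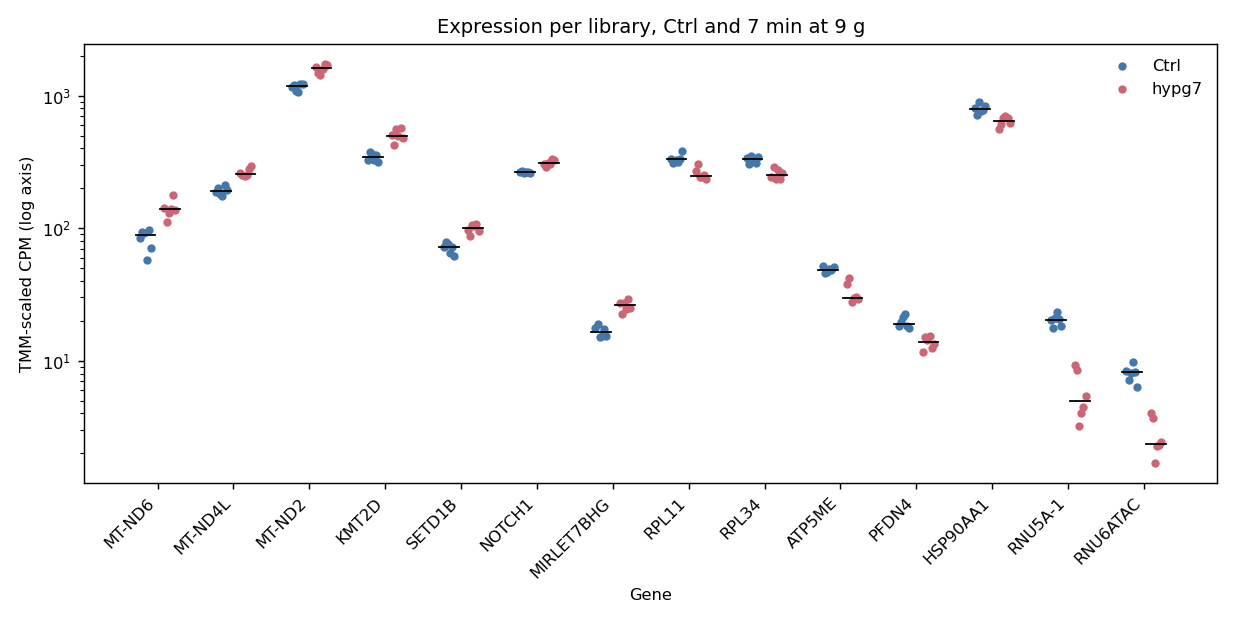
TMM-scaled CPM (log axis) of 14 genes in each of the 6 Ctrl and 6 hypg7 libraries, with medians as lines. In each of the 14 genes shown the points of the groups do not overlap: the mitochondrial genes, KMT2D, SETD1B, NOTCH1 and MIRLET7BHG are higher at hypg7, and the others are lower.

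Chaperonins fold and proteasomes degrade proteins, and some genes of both were downregulated. In the chaperonin and prefoldin list, whose products fold newly made actin, tubulin and other proteins, 8 of 14 members were downregulated, 6 were not called and none was upregulated (background 6.19% down; median −0.19, total counts −0.14). Of 32 proteasome subunits 12 were down, 20 were not called and none was up, with a median of −0.15 (total counts −0.11). Libraries 31 and 32 of hypg7 both lay above libraries 33 to 36 for 5 of these 8 and 8 of these 12 (475 of all 1017 downregulated genes). PFDN4, a prefoldin subunit, ran from 17.6 to 22.7 CPM in Ctrl (median 19) and from 11.6 to 15.5 CPM at hypg7 (median 13.8). All hypg7 libraries were below all Ctrl libraries, and the log2 fold change was −0.52 ± 0.082 (SE, n = 6 and 6, edgeR adjusted p = 0.00176). PFDN2 changed by −0.43 (adjusted p = 0.000446), and CCT2, a subunit of the cytosolic chaperonin, by −0.33 (adjusted p = 0.00172), both without overlap. HSPD1, the chaperonin of the mitochondrial matrix, changed by −0.21 (adjusted p = 0.0124). PSMD7, of the regulatory particle of the proteasome, and PSMB1, of its core, changed by −0.32 (adjusted p = 0.00295) and −0.23 (adjusted p = 0.0115). For the proteasome the count was 7 without Ctrl library 6 or library 35 or 36 of hypg7, and 19 without library 32 of hypg7. Chaperonin and prefoldin genes down numbered 4 in the model of 60 libraries (7 without library 75). Proteasome subunits down numbered 20 with the GC offset and 5 in the model of 60 libraries (10 without library 75).

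No member of the heat shock lists was upregulated. Of 20 target genes of HSF1, the heat shock factor, 6 were downregulated, and of 10 genes for HSP90 proteins, their cochaperones and heat shock factors 4 were downregulated (background 6.19%). HSP90AA1, the inducible cytosolic HSP90, ran from 715 to 890.3 CPM in Ctrl (median 788) and from 558 to 702 CPM at hypg7 (median 647). The groups did not overlap, and the log2 fold change was −0.32 ± 0.062 (SE, n = 6 and 6, edgeR adjusted p = 0.00548). DNAJA1 and HSPH1, cochaperones of HSP70, changed by −0.32 (adjusted p = 0.000609) and −0.30 (adjusted p = 0.0101) without overlap. HSP90B1, the form of the endoplasmic reticulum, and HSP90AB1, the constitutive cytosolic form, changed by −0.31 (adjusted p = 0.00726) and −0.23 (adjusted p = 0.0221) with overlapping ranges. HSP90AB1 lost its call without Ctrl library 6 or library 33, 35 or 36 of hypg7 (up to adjusted p = 0.058), and the HSP90 list then had 2 members down. Without library 32 of hypg7, 10 of the HSF1 targets were down. HSF1 targets down numbered 12 with the GC offset, 12 against Ctrl60, 10 with DESeq2 and 3 in the model of 60 libraries (6 without library 75). HSP90 genes down numbered 0 in the model of 60 libraries (2 without library 75). HSPA5, the main chaperone of the endoplasmic reticulum, changed by −0.19 (adjusted p = 0.0163).

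When regulated genes averaging under 5 CPM were set aside, the 5 largest decreases belonged to spliceosomal small nuclear RNAs. Of 14 members tested 7 were downregulated and none was upregulated (background 6.19% down), and the median log2 fold change was −0.77. RNU5A-1, a gene for U5, ran from 17.8 to 23.2 CPM in Ctrl (median 20.4) and from 3.19 to 9.34 CPM at hypg7 (median 4.96). Every hypg7 library was below every Ctrl library, and the change was −1.79 ± 0.20 (SE, n = 6 and 6, edgeR adjusted p = 0.000271). RNU6ATAC, the catalytic RNA of the minor spliceosome, ran from 6.33 to 9.85 CPM in Ctrl (median 8.19) and from 1.69 to 4.03 CPM at hypg7 (median 2.37), a change of −1.56 (adjusted p = 0.000259). RNU5B-1, a further U5 gene, ran from 5.28 to 9.73 CPM in Ctrl (median 7.33) and from 1.82 to 3.73 CPM at hypg7 (median 2.25), a change of −1.53 (adjusted p = 0.000259). The groups were apart for both. RNU4-1, a gene for U4, ran from 134 to 150.0 CPM in Ctrl (median 139) and from 36.9 to 107 CPM at hypg7 (median 53), a change of −1.07 (adjusted p = 0.0053). RNU4-2, its near-identical copy and chosen after its values were seen, changed by −1.03 (adjusted p = 0.00786), and reads of such copies cannot be assigned with certainty. Levels of such short RNAs can depend on fragment selection, which was not tested. For 6 of the 7 downregulated members libraries 31 and 32 of hypg7 lay above libraries 33 to 36, with RNU4-1 at 103 and 107 CPM against 36.9 to 53.1, RNU4-2 at 119 and 117 against 42.8 to 57.8, and RNU5A-1 at 9.34 and 8.51 against 3.19 to 5.43. Counts of this list moved from 6 to 8 over the 12 fits that left out a library, and fits that leave out 1 library at a time cannot show how far the list depends on such a pair.

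Some proteins of the splicing machinery were downregulated too. Of 41 core spliceosome proteins 15 were downregulated, 1 was upregulated and 25 were not called (median −0.15, total counts −0.11; background 6.19% down), and of 26 hnRNP proteins, which package nascent RNA, 10 were downregulated, 16 not called and none upregulated (median −0.16, total counts −0.11), with all 26 estimates below 0 under TMM. ZCRB1, a protein of the minor spliceosome, ran from 21.1 to 26.9 CPM in Ctrl (median 22) and from 13.8 to 20.3 CPM at hypg7 (median 15.4), without overlap, a change of −0.51 ± 0.087 (SE, n = 6 and 6, edgeR adjusted p = 0.00243). LSM3, of the ring on U6, changed by −0.35 (adjusted p = 0.000423). SNW1 and IK, spliceosome proteins outside the list, changed by −0.43 (adjusted p = 0.000295) and −0.41 (adjusted p = 0.00162). HNRNPU, an RNA-binding protein of the nuclear matrix, ran from 668 to 778 CPM in Ctrl (median 708) and from 500.4 to 612 CPM at hypg7 (median 568) and changed by −0.34 (adjusted p = 0.00176). These genes were apart between groups, while the ranges of TAF15 (−0.37, adjusted p = 0.00535), a further RNA-binding protein, overlapped.

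Regulators of splice site choice were mixed, with 2 of 27 SR proteins and CLK kinases up and 4 down (background 6.64% and 6.19%). The number up was 0 without Ctrl library 1 or 6 or library 35 of hypg7, 1 without Ctrl library 2, 4 or 5 or library 33, 34 or 36 of hypg7, and 4 without Ctrl library 3 or library 31 or 32 of hypg7. SRSF7 changed by −0.23 (adjusted p = 0.00386), SRRM2, a large scaffold of nuclear speckles, by 0.21 (adjusted p = 0.0233) and CLK1, a kinase of SR proteins, by 0.28 (adjusted p = 0.0394). U2AF1, which reads the end of the intron, was the core member that rose (0.31, adjusted p = 0.0432). Several of these calls did not hold in all 12 fits that left out a library: U2AF1 in 10 (up to adjusted p = 0.0923, without Ctrl library 6), CLK1 in 9 (up to adjusted p = 0.0877, without Ctrl library 6) and SRRM2 in 3 (up to adjusted p = 0.0562, without Ctrl library 6). Without Ctrl library 4, 5 or 6 or library 34, 35 or 36 of hypg7, 2 SR proteins were down. Without library 35 of hypg7, 6 hnRNP members were down. SR proteins and kinases up numbered 4 with the GC offset and 1 in the model of 60 libraries (1 without library 75). SR proteins and kinases down numbered 8 with the GC offset. hnRNP proteins down numbered 4 in the model of 60 libraries (5 without library 75).

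Of all lists, chromatin regulators had the most upregulated members by number. By share of members tested they did not, since 11 of 13 mitochondrially encoded genes were upregulated. Of 72 members tested 16 were upregulated and 2 downregulated (background 6.64% up and 6.19% down), with a median log2 fold change of 0.013 over the list (−0.021 with an offset for exon length) and 54 not called. KMT2D, which methylates histone H3 at enhancers, ran from 318 to 374 CPM in Ctrl (median 342) and from 424 to 566 CPM at hypg7 (median 499). All hypg7 libraries were above all Ctrl libraries, and the change was 0.55 ± 0.066 (SE, n = 6 and 6, edgeR adjusted p = 0.000344). SETD1B, a methyltransferase that acts on histone H3 at promoters, ran from 61.6 to 78.4 CPM in Ctrl (median 72.5) and from 88 to 108 CPM at hypg7 (median 100.2), again apart, a change of 0.49 (adjusted p = 0.000423). KDM6B, a demethylase of histone H3, and SRCAP, a remodeler that deposits the histone variant H2A.Z, changed by 0.34 (adjusted p = 0.000613) and 0.34 (adjusted p = 0.00162), also without overlap. EZH2, the methyltransferase of the Polycomb complex, and SMARCC1, of the BAF complex, were the 2 members that fell and were chosen after their values were seen (−0.12 and −0.14, adjusted p = 0.0369 and 0.0469). They lost their calls in several fits that left out a library: EZH2 in 9 (up to adjusted p = 0.0861, without hypg7 library 36) and SMARCC1 in 10 (up to adjusted p = 0.106, without hypg7 library 36). Without library 32 of hypg7, 6 members were down. The upregulated count stayed between 13 and 18 over these fits and was 15 in the model over all 60 libraries. Members down numbered 11 with the GC offset, 6 against Ctrl60, 5 with DESeq2 and 1 in the model of 60 libraries (1 without library 75).

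NOTCH receptors, which drive growth of T cell leukemia, rose as well. Of 25 members of the pathway tested, 6 were upregulated and 1 was downregulated (background 6.64% up). NOTCH1 ran from 259 to 272 CPM in Ctrl (median 266) and from 287 to 329.8 CPM at hypg7 (median 308), NOTCH2 from 112 to 120.4 CPM in Ctrl (median 117) and from 128 to 152 CPM at hypg7 (median 138) and NOTCH3 from 162 to 177 CPM in Ctrl (median 173) and from 197 to 216 CPM at hypg7 (median 206). Each of the 3 receptors was higher in every hypg7 library than in any Ctrl library. Their log2 fold changes were 0.23 ± 0.037 (SE, n = 6 and 6, edgeR adjusted p = 0.00192), 0.26 (adjusted p = 0.000954) and 0.27 (adjusted p = 0.00037). MAML1, a coactivator of the receptors, changed by 0.26 (adjusted p = 0.000446), without overlap. NUMB, an inhibitor of the pathway chosen after its values were seen, changed by −0.14 (adjusted p = 0.0386) and lost the call in fits that left out a library: NUMB in 9 (up to adjusted p = 0.0865, without hypg7 library 36). Members up numbered 2 in the model of 60 libraries (4 without library 75). Members down numbered 3 with the GC offset, 0 with total counts and 0 in the model of 60 libraries (0 without library 75).

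Outside these lists, the protein-coding genes with the largest increase and no overlap between groups came from diverse families. TTC34, a protein with tetratricopeptide repeats, ran from 7.09 to 9 CPM in Ctrl (median 8.41) and from 11 to 13.7 CPM at hypg7 (median 12.4) and changed by 0.60 ± 0.073 (SE, n = 6 and 6, edgeR adjusted p = 0.00037). LTB4R2, a receptor for leukotriene B4, ran from 6.54 to 9.1 CPM in Ctrl (median 7.23) and from 9.16 to 12 CPM at hypg7 (median 11.1), and LRP1, an endocytic receptor, from 20.0 to 22 CPM in Ctrl (median 21.5) and from 27.1 to 33.8 CPM at hypg7 (median 29.3). Their changes were 0.53 (adjusted p = 0.00198) and 0.48 (adjusted p = 0.000295). Of the others, NECAB3, a calcium-binding protein, changed by 0.50 (adjusted p = 0.000473) and AMH, the anti-Mullerian hormone, by 0.47 (adjusted p = 0.00192). The zinc finger proteins ZNF607 and ZNF587B changed by 0.54 (adjusted p = 0.00195) and 0.46 (adjusted p = 0.00204). Among the largest decreases, PDCD5, linked to apoptosis, changed by −0.44 (adjusted p = 0.00162) and EID1, an inhibitor of EP300, by −0.39 (adjusted p = 0.0128).

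Several types of noncoding transcripts had more members up than down. Of 827 long intergenic noncoding RNAs tested 92 were upregulated and 9 downregulated, of 1110 antisense transcripts 114 and 22, and of 268 sense intronic transcripts 40 and 1, against 648 and 844 of 12246 protein-coding genes. Up and down were 7 and 0 of 71 microRNAs, 3 and 13 of 102 small nucleolar RNAs and 4 and 13 of 73 miscellaneous RNAs, beside 6.64% and 6.19% of all genes, and a difference between these types was not tested. Processed pseudogenes, whose reads cannot be told apart with certainty from those of their parent genes, had 16 up and 91 down of 488. Host genes of microRNAs had 5 of 13 members up and 1 down (background 6.64% up). MIRLET7BHG, the host transcript of let-7 microRNAs, ran from 15 to 19.1 CPM in Ctrl (median 16.4) and from 22.4 to 29.2 CPM at hypg7 (median 26.2). The groups were apart, and the change was 0.64 ± 0.075 (SE, n = 6 and 6, edgeR adjusted p = 0.000295). MIR17HG, host of the oncogenic miR-17 cluster, ran from 29.7 to 33.5 CPM in Ctrl (median 30.2) and from 38 to 46.4 CPM at hypg7 (median 41.5), also apart, a change of 0.45 (adjusted p = 0.000294). MIR9-3HG, DAAM2-AS1 and MIR223HG, of which the last hosts a myeloid microRNA, changed by 0.59 (adjusted p = 0.00159), 0.57 (adjusted p = 0.0015) and 0.50 (adjusted p = 0.000917), each outside the list and without overlap. Within the list MIR29B2CHG changed by 0.33 (adjusted p = 0.0115), and MIR210HG, the hypoxia-inducible host of miR-210, was the member that fell (−0.40, adjusted p = 0.0297).

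Of 15 nuclear long noncoding RNAs 3 were upregulated (background 6.64%), among them MIAT (0.34, adjusted p = 0.00468) and PVT1 (0.39, adjusted p = 0.0413), a neighbor of MYC. MALAT1, a component of nuclear speckles, ran from 369.5 to 765 CPM in Ctrl (median 498) and from 380.5 to 775 CPM at hypg7 (median 606), and its change of 0.14 (95% interval −0.24 to 0.52, adjusted p = 0.687) was not called. Host genes of small nucleolar RNAs had 5 of 26 members up and 2 down, with SNHG5 at 0.37 (adjusted p = 0.00841) and SNHG25 at −0.43 (adjusted p = 0.007). Small nucleolar RNA host genes up numbered 10 with total counts, 3 against Ctrl60 and 2 in the model of 60 libraries (5 without library 75). These genes down numbered 1 against Ctrl60 and 1 in the model of 60 libraries (1 without library 75). Without Ctrl library 3, 5 or 6 or library 31, 33, 35 or 36 of hypg7, 1 was down. Of the 12 fits that left out a library, some did not call these genes: PVT1 in 8 (up to adjusted p = 0.104, without hypg7 library 35) and MIR210HG in 6 (up to adjusted p = 0.0666, without Ctrl library 4). Nuclear long noncoding RNAs up numbered 5 with the GC offset. MicroRNA host genes up numbered 3 against Ctrl60. Nuclear long noncoding RNAs up were 5 without library 32 of hypg7. The microRNA host genes up numbered 3 without Ctrl library 1, 3, 4 or 5 or library 33, 35 or 36 of hypg7. RN7SL1, chosen after its values were seen as the most abundant RNA, was at a median of 54283 CPM in Ctrl and 53499.8 CPM at hypg7 (0.013 (adjusted p = 0.96), −0.024 with the GC offset).

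Among proteins that sense or carry mechanical load, 4 of 20 mechanosensitive and volume-regulated channels and their regulators were upregulated and 1 was downregulated (background 6.64% and 6.19%). PIEZO1, a stretch-activated cation channel, ran from 403 to 429 CPM in Ctrl (median 419) and from 456 to 506 CPM at hypg7 (median 479.9). PKD1, polycystin of the primary cilium, ran from 96.4 to 113 CPM in Ctrl (median 106) and from 122 to 149.5 CPM at hypg7 (median 136). Both were higher in each hypg7 library than in any Ctrl library, with changes of 0.20 ± 0.035 (SE, n = 6 and 6, edgeR adjusted p = 0.00352) and 0.38 (adjusted p = 0.000566). OXSR1, a kinase of volume regulation, was the member that fell (−0.18, adjusted p = 0.0173). Of 40 genes of the actin cytoskeleton 10 were downregulated and 1 was upregulated (background 6.19% and 6.64%). TMSB10, which binds actin monomers, changed by −0.27 (adjusted p = 0.00796) and ACTR3, of the actin-branching complex, by −0.25 (adjusted p = 0.00393), both apart, and EZR, a linker of actin to the membrane, by −0.25 (adjusted p = 0.0101) with overlap. Without Ctrl library 4, 5 or 6 or library 33 of hypg7, 6 actin genes were down, and without Ctrl library 1, 2, 3 or 5 or library 31, 32, 33, 35 or 36 of hypg7, 0 were up. Channels down numbered 0 with total counts and 0 in the model of 60 libraries (0 without library 75). Actin genes down numbered 2 in the model of 60 libraries (4 without library 75). Actin genes up numbered 2 with the GC offset, 2 with total counts and 0 in the model of 60 libraries (1 without library 75).

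ACTB, cytoplasmic actin, was not called, at a median of 11472 CPM in Ctrl and 11196 CPM at hypg7 (−0.044, 95% interval −0.19 to 0.11, adjusted p = 0.762; 0.00085 with total counts). DYNC1H1, the dynein heavy chain that moves cargo along microtubules, ran from 694 to 795 CPM in Ctrl (median 757) and from 883 to 1060.3 CPM at hypg7 (median 948), apart, a change of 0.36 (adjusted p = 0.000977). Of 17 genes of the nuclear lamina and its linkers 3 were down and none up (background 6.19%), namely BANF1 (−0.25, adjusted p = 0.0147), LMNB1 (−0.14, adjusted p = 0.0287) and LMNB2 (−0.14, adjusted p = 0.0175). BANF1 tethers chromatin to the envelope and the others code for B-type lamins. LMNB1 was not called in 5 of the 12 fits that left out a library, up to an adjusted p of 0.0664 without library 36 of hypg7. Integrins up numbered 2 with the GC offset, 2 with total counts and 2 against Ctrl60. Of 14 lymphocyte integrins 1 was up (background 6.64%), ITGA5 of the fibronectin receptor (0.18, adjusted p = 0.00796).

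T cell signaling joins the antigen receptor to calcium and NFAT. Of 37 genes of T cell receptor signaling none was upregulated and 2 were downregulated (background 6.64% and 6.19%), CD2, an adhesion receptor (−0.21, adjusted p = 0.0053), and GRB2, an adaptor (−0.15, adjusted p = 0.0353). CD3E, a signaling chain of the receptor, ran from 535 to 608 CPM in Ctrl (median 577) and from 494 to 612 CPM at hypg7 (median 518), and its change of −0.083 (95% interval −0.21 to 0.040, adjusted p = 0.421) was not called. Of 27 genes of calcium entry and NFAT 4 were upregulated: ITPR3, a calcium release channel (0.12, adjusted p = 0.0179), ATP2A2, a calcium pump (0.13, adjusted p = 0.0207), PPP3R1, the regulatory subunit of calcineurin (0.20, adjusted p = 0.0334), and NFATC2 (0.14, adjusted p = 0.0272). Of 23 immediate early genes tested 1 was called, KLF6, which was downregulated (−0.17, adjusted p = 0.0499). NF-kB genes had 2 of 20 down, NFKB1 (−0.12, adjusted p = 0.0263) and TNFAIP3 (−0.16, adjusted p = 0.0116), and none up. Of 10 MAP kinase phosphatases 1 was up and 2 were down, DUSP2 (−0.24, adjusted p = 0.00718) and DUSP10 (−0.43, adjusted p = 0.0174).

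Transcription factors tied to T cell leukemia were called about as often as all genes, with 2 of 27 up, NOTCH1 and NOTCH3, and 2 down, FLI1 (−0.21, adjusted p = 0.00543) and LEF1 (−0.11, adjusted p = 0.0404), beside a background of 6.64% up and 6.19% down. When any single Ctrl library or library 33, 34, 35 or 36 of hypg7 was left out, 1 was down. Leukemia factors up numbered 5 with total counts, 4 against Ctrl60 and 1 in the model of 60 libraries (2 without library 75). Leukemia factors down numbered 0 with total counts and 1 in the model of 60 libraries (1 without library 75). Of 31 genes of PI3K, AKT and mTOR 2 were up and none was down, and among them INPP5D, a lipid phosphatase that counters PI3K, changed by 0.30 (adjusted p = 0.00994). Only 1 was up without Ctrl library 1, 2, 4, 5 or 6 or library 33, 34, 35 or 36 of hypg7. PI3K genes up numbered 6 with total counts, 4 against Ctrl60 and 1 in the model of 60 libraries (2 without library 75).

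Many of these small changes were lost when a library was left out. The gene and the number of the 12 such fits without a call were KLF6 in 11 (up to adjusted p = 0.111, without hypg7 library 36), LEF1 in 10 (up to adjusted p = 0.0845, without hypg7 library 34), PPP3R1 in 9 (up to adjusted p = 0.0802, without hypg7 library 36), GRB2 in 8 (up to adjusted p = 0.0762, without hypg7 library 34), NFATC2 in 6 (up to adjusted p = 0.0717, without hypg7 library 35), NFKB1 in 5 (up to adjusted p = 0.0639, without Ctrl library 4) and ATP2A2 in 2 (up to adjusted p = 0.0571, without hypg7 library 35). T cell receptor genes down numbered 5 without Ctrl library 3 or library 32 of hypg7, 4 without library 31 of hypg7, and 1 without Ctrl library 1, 4, 5 or 6 or library 34, 35 or 36 of hypg7. The calcium and NFAT genes up numbered 1 without Ctrl library 4, and 2 without Ctrl library 1, 5 or 6 or library 35 or 36 of hypg7. Without Ctrl library 1, 4 or 6 or library 33 or 34 of hypg7, 1 NF-kB gene was down. T cell receptor genes down numbered 12 with the GC offset, 4 with total counts and 5 with DESeq2. Calcium and NFAT genes up numbered 9 with total counts and 2 in the model of 60 libraries (2 without library 75). Immediate early genes down numbered 5 with the GC offset, 0 with total counts, 3 against Ctrl60 and 2 with DESeq2. NF-kB genes down numbered 7 with the GC offset, 0 with total counts and 0 in the model of 60 libraries (2 without library 75). MAP kinase phosphatases up numbered 2 against Ctrl60 and 0 in the model of 60 libraries (1 without library 75).

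Metabolic and stress lists held a few clear changes. Of 22 glycolysis genes 3 were downregulated and none was upregulated (background 6.19% down), with PFKFB3, which makes an activator of glycolysis, running from 88.8 to 98.7 CPM in Ctrl (median 93.6) and from 69.7 to 80.2 CPM at hypg7 (median 76.2) and SLC2A1, the main glucose carrier, from 145 to 171 CPM in Ctrl (median 161) and from 124 to 143 CPM at hypg7 (median 134). Both were lower in each hypg7 library than in any Ctrl library, with changes of −0.32 ± 0.041 (SE, n = 6 and 6, edgeR adjusted p = 0.000446) and −0.26 (adjusted p = 0.00296). GAPDH was not called (−0.096, 95% interval −0.25 to 0.055, adjusted p = 0.451). Of 18 hypoxia genes 2 were up and 3 down (background 6.64% and 6.19%), ANKRD37 (−0.53, adjusted p = 0.000566), MXI1 (−0.34, adjusted p = 0.0085) and BNIP3 (−0.23, adjusted p = 0.00245), all induced by HIF1 and each apart between groups. Without Ctrl library 2, 3, 5 or 6 or library 31 or 35 of hypg7, 1 hypoxia gene was up. Glycolysis genes down numbered 12 with the GC offset. Hypoxia genes up numbered 0 against Ctrl60 and 0 in the model of 60 libraries (0 without library 75).

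Counts of 4 further stress lists follow, beside a background of 6.64% up and 6.19% down. Of 25 genes of ATF4 and the unfolded protein response 2 were up and 2 down. CHAC1, a target of ATF4 that degrades glutathione, ran from 3.52 to 4.78 CPM in Ctrl (median 4.19) and from 5.05 to 6.34 CPM at hypg7 (median 5.71), apart, and changed by 0.45 (adjusted p = 0.00441). Without Ctrl library 1, 4 or 6 or library 35 of hypg7, 1 was up. ATF4 genes up numbered 4 with the GC offset. ATF4 genes down numbered 8 with the GC offset, 4 against Ctrl60 and 1 in the model of 60 libraries (2 without library 75). Antioxidant genes of NRF2 had 1 of 19 up and 4 down, of which PRDX1, a peroxide-removing enzyme, changed by −0.25 (adjusted p = 0.00726). Down were 1 without Ctrl library 4 or 6 or library 35 of hypg7, 2 without Ctrl library 1 or 5 or library 33 or 36 of hypg7, and 7 without library 32 of hypg7. NRF2 genes up numbered 0 in the model of 60 libraries (1 without library 75). NRF2 genes down numbered 8 with the GC offset. The BCL2 family had 1 of 16 up, the antiapoptotic MCL1 (0.15, adjusted p = 0.0307), and 1 down, the proapoptotic BID (−0.27, adjusted p = 0.00202). MCL1 lost its call without Ctrl library 1, 2, 4 or 6 or library 33, 34, 35 or 36 of hypg7 (up to an adjusted p of 0.0729, without library 36), and 2 were down without library 32 of hypg7. BCL2 genes up numbered 2 with the GC offset, 2 against Ctrl60 and 0 in the model of 60 libraries (0 without library 75). BCL2 genes down numbered 4 with the GC offset and 2 with DESeq2. Interferon and antigen presentation genes had 1 of 31 up and 2 down, of which IFI16, a DNA sensor, changed by −0.39 (adjusted p = 0.00078), with no overlap. None was up when any library but library 32 of hypg7 was left out. Down was 1 without Ctrl library 2, 5 or 6 or library 34, 35 or 36 of hypg7, and 5 without library 32 of hypg7. Interferon genes up numbered 2 with the GC offset, 3 with total counts and 0 in the model of 60 libraries (1 without library 75). Interferon genes down numbered 10 with the GC offset and 0 in the model of 60 libraries (1 without library 75).

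Translation, transcription and replication lists had more members down than up, against 6.19% down over all genes tested. Of 20 aminoacyl-tRNA synthetases 6 were downregulated, among them TARS1 by −0.30 (adjusted p = 0.00218) (10 were down without library 32 of hypg7), and of 40 translation factors 5, EIF3H by −0.28 (adjusted p = 0.0019) (1 without Ctrl library 4 or library 35 of hypg7, 2 without Ctrl library 1, 5 or 6 or library 36 of hypg7, 3 without library 34, 8 without library 31 and 11 without library 32 of hypg7). Of 52 genes of RNA polymerase II and Mediator 7 were down and 1 was up. The member that rose was POLR2A, the catalytic subunit, chosen after its values were seen (0.19, adjusted p = 0.00737), and SUPT4H1, an elongation factor, changed by −0.36 (adjusted p = 0.0216). SUPT4H1 was not called without Ctrl library 5 (adjusted p = 0.0554), Ctrl library 6 or library 35 of hypg7. Without Ctrl library 6, 4 of the polymerase and Mediator genes were down, and without library 35 of hypg7, 3, while 2 were up without Ctrl library 3 or library 31 of hypg7. DNA replication genes had 6 of 41 down and 1 up, with MCM6, of the replicative helicase, at −0.23 (adjusted p = 0.00208) and POLE, a replicative polymerase, at 0.18 (adjusted p = 0.0048). Without Ctrl library 5 or 6 or library 36 of hypg7, 2 of them were down, without Ctrl library 1 or 4 or library 33, 34 or 35 of hypg7, 3, and without library 32 of hypg7, 12. NCAPH, of condensin, changed by −0.16 (adjusted p = 0.00718), and ATP6V0C, of the lysosomal proton pump, by 0.50 (adjusted p = 0.0183) (adjusted p = 0.0503 without library 35 of hypg7). tRNA synthetases down numbered 12 with the GC offset and 1 in the model of 60 libraries (3 without library 75). Translation factors down numbered 17 with the GC offset, 12 against Ctrl60, 11 with DESeq2 and 2 in the model of 60 libraries (5 without library 75). Polymerase and Mediator genes up numbered 7 with the GC offset, 4 with total counts and 2 against Ctrl60. Polymerase and Mediator genes down numbered 14 with the GC offset. Replication genes down numbered 17 with the GC offset and 2 in the model of 60 libraries (3 without library 75). Replication genes up numbered 2 against Ctrl60. Of 52 histone genes tested 0 were called by edgeR (1 at an unadjusted p under 0.05; DESeq2 called 0).

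The identity of the cells was checked with lineage markers. All 12 T cell markers were expressed, and their sum ran from 3806 to 4235 CPM in Ctrl (median 4000.2) and from 3570 to 4065 CPM at hypg7 (median 3787), with LCK the most abundant. Of 5 B cell markers 1 passed the filter on low counts, CD79A at a mean of 58.8 CPM. Monocyte markers summed to a median of 0.504 CPM in Ctrl and 0.528 at hypg7, and of 5 erythroid markers 3 had no count in any of the 12 libraries. Fibroblast and epithelial markers summed to medians of 6.13 and 6.15 CPM, nearly all of it COL1A1, and 5 of 8 had no count.

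At hypg7 the relation of change with GC content was the weakest of the 8 time points. Across 16210 genes, Spearman's rho of the log2 fold change with the GC content of the gene was 0.0985, compared with 0.603, 0.570 and 0.683 after 20 s, 75 s and 3 min, 0.417 and 0.314 after 5 and 9 min, 0.663 after 15 min (0.678 without library 75) and 0.386 after 60 min. All of these but hypg60 share Ctrl, and genes are not independent replicates, so that rho is given as a description. Among genes of at least 10 CPM rho at hypg7 was 0.149. The median change was −0.0011 in the lowest and 0.041 in the highest of 10 bins of genes by GC content, and in between it stayed from −0.024 to 0.020. Regulated genes nevertheless differed by GC content, counted in 5 bins with 3242 genes each. From the lowest to the highest bin 52, 144, 246, 285 and 340 genes were up, and 147, 332, 278, 171 and 88 were down. Downregulated genes were thus most frequent in the second bin (10.2%), with 4.53% in the lowest.

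Single hypg7 libraries went opposite ways. Against the mean of Ctrl, rho with GC content was 0.474 in library 31, 0.439 in library 32, 0.224 in library 36 and 0.0379 in library 35, but −0.34 in library 33 and −0.23 in library 34. The slope of log2 CPM on GC content, per 10 percentage points, ran from 0.137 to 0.319 in Ctrl (median 0.270) and from 0.149 to 0.370 at hypg7 (median 0.284), and the groups overlapped (exact permutation p = 0.656, adjusted 0.656). With a GC-dependent offset 1348 genes were up and 2208 down. Of the genes regulated without it, 932 of 1091 upregulated and 922 of 1017 downregulated kept their calls.

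**Figure D4:**
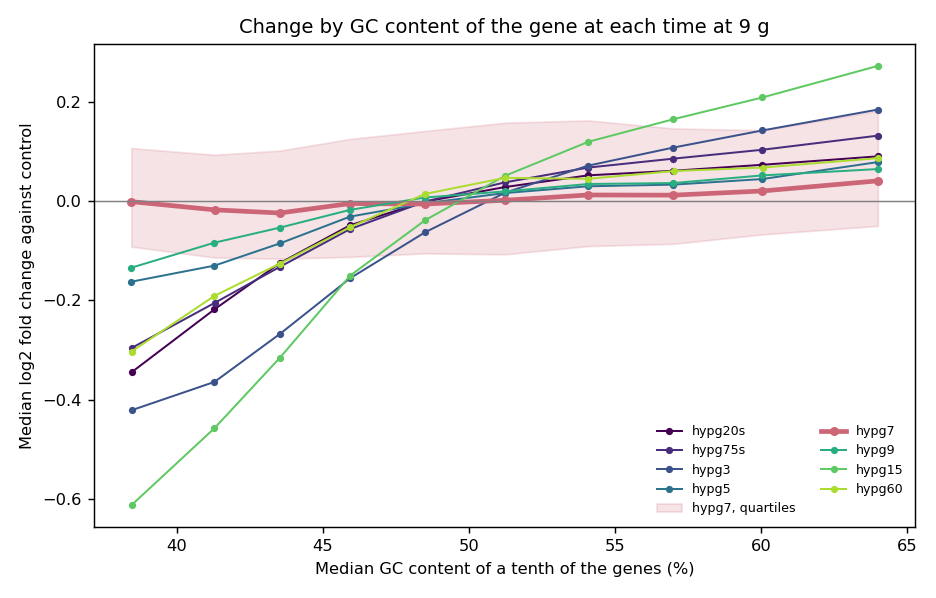
Median log2 fold change against control (Ctrl, or Ctrl60 for hypg60) in 10 bins of genes ordered by GC content, plotted at the median GC content of each bin, for the 8 time points (hypg15 without library 75). The line of hypg7 stays between −0.024 and 0.041, with its quartiles shaded. The other time points start at −0.13 or lower in the lowest bin and end at 0.064 or higher in the highest.

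To ask whether 7 min differed from neighboring time points, hypg7 was compared directly with hypg5 and hypg9, without Ctrl. No gene was called against hypg5, where edgeR found 0 of 16345 genes (0%) at an adjusted p under 0.05 and 695 at an unadjusted p under 0.05 (DESeq2 called 2). Against hypg9 edgeR found 0 of 16260 genes (0%), with 544 at an unadjusted p under 0.05 (DESeq2 called 0). Some intervals of single genes excluded 0 without passing the adjustment over all genes. RNU5A-1 differed from hypg5 by −0.78 (95% interval −1.22 to −0.33) and from hypg9 by 0.27 (95% interval −0.21 to 0.75). ATP5ME, lower at hypg7 than at hypg5 by the estimate, differed by −0.38 (95% interval −0.56 to −0.19) and from hypg9 by −0.037 (95% interval −0.23 to 0.15). KMT2D differed by −0.00061 (95% interval −0.14 to 0.14) and −0.033 (95% interval −0.17 to 0.10), MT-ND6 by −0.53 (95% interval −0.72 to −0.34) and −0.021 (95% interval −0.26 to 0.22).

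Against hypg3, 5354 of 16175 genes (33.1%) differed, 2847 higher and 2507 lower at hypg7 (DESeq2 called 5657), and 736 of the 2086 hypg7-regulated genes that were tested were among them. HSP90AA1 was higher at hypg7 than at hypg3 by 0.73 (95% interval 0.50 to 0.96) log2 units, at medians of 643 and 384 CPM. RNU5A-1 was lower by −1.39 (95% interval −1.88 to −0.89). IFI16 differed by 0.50 (95% interval 0.32 to 0.68) and RPL34 by 0.24 (95% interval 0.093 to 0.39), both higher at hypg7. Across genes this difference had a rho of −0.74 with GC content, beside −0.445 for hypg7 minus hypg5 and −0.42 for hypg7 minus hypg9. With a GC-dependent offset 976 genes were called against hypg3 and 0 against hypg5 or hypg9. The hypg3 libraries are numbered 69 to 74, farther from those of hypg7 than the libraries of hypg5 and hypg9, and here too library number range and time cannot be told apart.

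Values of the main genes at the other time points are given side by side, in the order 3, 5, 7, 9 and 15 min at 9 g, and all of these share Ctrl. For KMT2D the log2 fold change was 0.63, 0.55, 0.55, 0.59 and 0.64. RNU5A-1 stood at −0.43, −1.02, −1.79, −2.05 and −0.52. Of these 5 time points RNU5A-1 was lowest at hypg7 and hypg9. HSP90AA1 stood at −1.07, −0.32, −0.32, −0.26 and −1.12, nearest to 0 at hypg5, hypg7 and hypg9 among these. RPL11 stood at −0.42, −0.14, −0.38, −0.38 and −0.60, and MT-ND6 at 0.86, 1.29, 0.76, 0.79 and 1.01. CHAC1 was highest at hypg20s (0.93) and stood at 0.45 at hypg7 and −0.030 at hypg15. For hypg15, library 75 was left out of these fits.

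**Figure D5:**
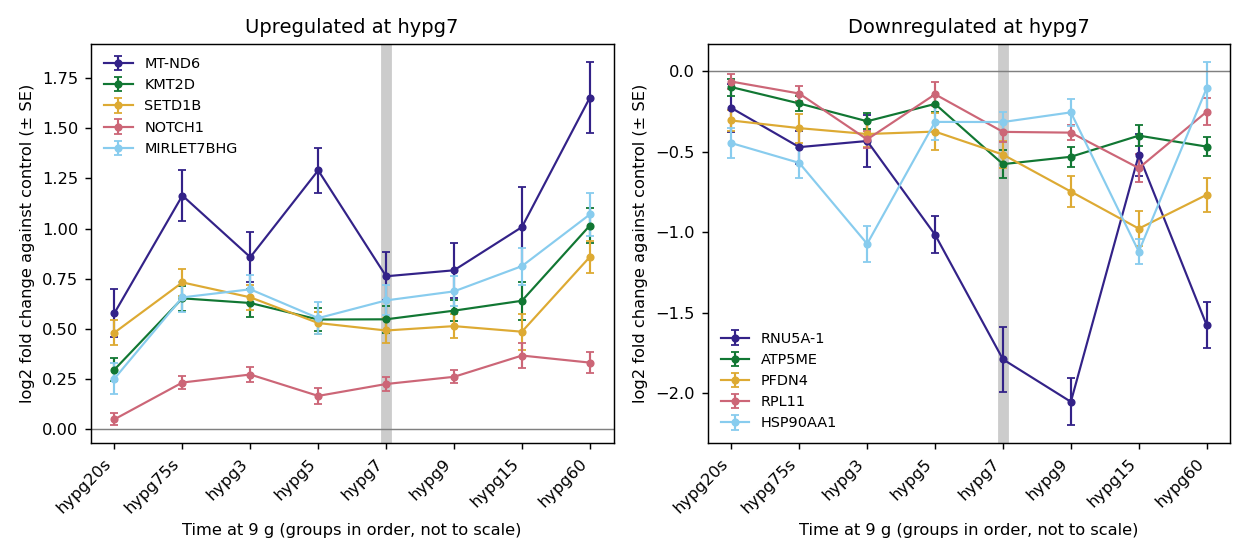
Log2 fold change against control with SE for 5 genes upregulated (left) and 5 downregulated (right) at hypg7, at the 8 time points in order of duration (hypg15 without library 75; hypg60 against Ctrl60). The grey band marks hypg7; RNU5A-1 reaches −1.79 there and −2.05 at hypg9, while KMT2D and SETD1B stay near 0.5 from hypg5 to hypg9.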

How the data were processed

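Total RNA depleted of ribosomal RNA was sequenced as directional paired-end libraries. The authors deposited counts of read pairs per gene (not normalized), made per the labels with Trim Galore 0.6.5, STAR 2.7.3a and featureCounts 2.0.1 (the table states 2.0.3) on Ensembl 104. The unit of gene length in the deposited table is bases (other). Of 60663 genes in the table, the record of 1 gene, ANK2, was broken over 3 lines and left out. Symbols matched 60462 genes, and GC content, from GENCODE 29, 58336 genes. No column was unmatched (0), and 20 columns belonged to samples in no comparison here. Libraries were grouped by treatment label.

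Genes were filtered with filterByExpr (minimum count 10), scaled by TMM and tested in edgeR 4.0.16 (R 4.3.3) by its quasi-likelihood F statistic, 6 against 6 libraries, at a Benjamini-Hochberg adjusted p under 0.05 without a fold change threshold. CPM are TMM-scaled and SE was derived from the F statistic. Intervals at 95% were formed from the SE with the normal distribution, which makes them somewhat narrower than those of the F statistic. Library measures were tested with exact permutation tests over all splits. Alternatives were no filter, total counts, RLE factors, TMM without mitochondrial and small RNAs, DESeq2 1.42.0, all 60 libraries in a single model, 3 surrogate variables (sva 3.50.0), lowess offsets for GC content or exon length (span 0.3), Ctrl60 in place of Ctrl, and each library left out. Start sites came from RefSeq on GRCh38.p14.

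Named genes were those called, with a mean of at least 5 CPM and groups that did not overlap: the 12 protein-coding genes with the largest change per direction and 4 per direction of other types. To these came up to 4 called members of each list and up to 3 genes per direction of each direct comparison, and control genes. Groups and lists were chosen with earlier results of these data known. Genes chosen after their values were seen are named as such.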

Additional observations from a re-analysis of the deposited data

Results flagged for a closer look

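In 260 groups of 6 libraries of the named genes and library measures, chance places a library far from the other 5 in about 1 in 20 groups, and here it was so in 18. ZCRB1 was at 26.9 CPM in Ctrl library 3 and at 21.1 to 22.3 CPM in the others. ZCRB1 was at 20.3 CPM in hypg7 library 34 and at 13.8 to 15.7 CPM in the others. EID1 was at 40.3 CPM in Ctrl library 3 and at 28.9 to 29.9 CPM in the others. RPL11 was at 385 CPM in Ctrl library 6 and at 312 to 335 CPM in the others. U2AF1 was at 6.56 CPM in Ctrl library 2 and at 5.04 to 5.6 CPM in the others. CLK1 was at 22.8 CPM in Ctrl library 3 and at 17 to 18.6 CPM in the others. EZH2 was at 143 CPM in Ctrl library 3 and at 129 to 133 CPM in the others. SMARCC1 was at 449 CPM in Ctrl library 2 and at 482 to 499.9 CPM in the others. MIR17HG was at 33.5 CPM in Ctrl library 5 and at 29.7 to 30.4 CPM in the others. MIR210HG was at 3.52 CPM in Ctrl library 4 and at 3.14 to 3.23 CPM in the others. IFI16 was at 149.5 CPM in Ctrl library 3 and at 120.1 to 127 CPM in the others. CD2 was at 80.9 CPM in hypg7 library 32 and at 69 to 72 CPM in the others. ATP2A2 was at 430.0 CPM in hypg7 library 35 and at 402 to 408 CPM in the others. MCM6 was at 340.2 CPM in Ctrl library 6 and at 296 to 312 CPM in the others. SNHG25 was at 7.89 CPM in Ctrl library 1 and at 6.13 to 6.71 CPM in the others. LMNB1 was at 289 CPM in Ctrl library 3 and at 251 to 264 CPM in the others. INPP5D was at 22.9 CPM in hypg7 library 32 and at 26.5 to 28.6 CPM in the others. OXSR1 was at 115 CPM in Ctrl library 3 and at 97.6 to 102 CPM in the others. In 7 of these 18 groups the library was Ctrl library 3. The difference between hypg7 and hypg3, 5354 genes in a direct test, also stood out as a difference between time points, and library number range and time cannot be told apart there.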

How the results depend on the processing

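The 1091 genes upregulated, 1017 downregulated and 74 past 1 log2 unit at hypg7 were recounted under 22 other settings and 3 more chosen after seeing the data. No paired analysis was made, since the replicate numbers are running library numbers and the labels do not say whether libraries were paired between groups. With RLE factors 998 genes were up and 1115 down, with TMM computed without mitochondrial, 7SL, 7SK and spliceosomal RNAs 1093 and 1007, with DESeq2 1079 and 1350, with an offset for exon length 1137 and 1206, and with Ctrl60 in place of Ctrl 1211 and 1370. Without a filter on low counts 141 genes were past 1 log2 unit, and with total counts 1720 were up. In a single model of all 60 libraries 534 were down and 115 past 1 log2 unit, and with a GC offset 2208 were down. Leaving out each library in turn gave 633 to 1310 up, 586 to 1437 down and 48 to 117 past 1 log2 unit. The cause of these shifts was not tested.

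With 3 surrogate variables from 60 libraries as covariates edgeR called 0 up, 0 down and 0 past 1 log2 unit (601 at an unadjusted p under 0.05). Of 3 alternatives chosen after seeing the data, surrogate variables from the 12 libraries gave 2164 up and 2834 down, surrogate variables from 60 libraries without library 75 of hypg15 gave 9 up, 3 down and 2 past 1 log2 unit, and a single model without library 75 gave 133 past 1 log2 unit. The surrogate variables explained 0.931 (60 libraries), 0.877 (without library 75) and 0.0860 (12 libraries) of the variance of group over the 12 libraries.

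Against hypg5, 1 gene was called without a filter on low counts and 2 with DESeq2. Against hypg3, 976 were called with a GC offset. The share of counts on the X chromosome differed by −0.0406 percentage points with Ctrl60 in place of Ctrl, no longer past the threshold, and by −0.0527 to −0.0354 over the fits that left out a library; the cause was not tested.

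Named genes that were called changed sign only with surrogate variables of the 60 libraries, or of these without library 75, as covariates. Values that were not called and lay near 0 changed sign in other settings too: with 1 library left out, MT-ND3 ran from −0.086 to 0.028, RN7SL1 from −0.037 to 0.053, and the difference of GC slopes was −0.0034 without Ctrl library 3. With the 60 libraries the log2 fold changes were MT-ND6 −0.0011, PFDN4 0.0049, PDCD5 0.13, IK 0.020, MIR9-3HG −0.12, MIR223HG −0.049, RPS21 0.0071, MRPS9 0.13, PSMD7 0.12, HSP90AB1 0.036, HNRNPU 0.0016, TAF15 0.17, SRCAP −0.060, EZH2 0.022, SMARCC1 0.077, NOTCH1 −0.022, NUMB 0.014, MIR29B2CHG −0.13, PVT1 −0.10, CD2 0.17, DUSP10 0.26, TMSB10 0.050, ATP2A2 −0.011, PPP3R1 −0.095, NFATC2 −0.054, SNHG5 −0.063, ATP6V0C −0.20, BANF1 0.10, MCL1 −0.042, INPP5D −0.13, NCAPH 0.022. Without library 75 they were PFDN4 0.016, ZCRB1 0.014, PDCD5 0.015, RPL34 0.054, EZH2 0.015, MIR29B2CHG −0.26, PVT1 −0.51, NFATC2 −0.037. Of the 118 named genes called, 98 were called in each of the 12 fits that left out a library and 20 were not in at least 1. With surrogate variables from the 12 libraries, many lists had more members called. Down were 70 cytosolic and 57 mitochondrial ribosomal proteins, 55 nuclear respiratory chain genes, 27 proteasome subunits and 26 core spliceosome proteins. So were 22 replication genes, 22 translation factors, 21 hnRNP proteins, 21 actin genes, 14 chromatin regulators, 13 T cell receptor genes and 12 glycolysis genes. Chromatin regulators up numbered 22. Low counts limit precision: the genes past 1 log2 unit had a median SE of 0.24, against 0.086 over all genes tested.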

Other observations

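Ctrl60 and Ctrl, both at 1 g, differed in 2 of 16109 genes tested with edgeR (578 at an unadjusted p under 0.05).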
